A study of Rattus norvegicus with 50 samples.

Results

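Genes of cholesterol and fatty acid synthesis, and of their control and export, were followed in rat lung after inhalation of titanium dioxide (TiO2). A list of 37 gene symbols was matched to the gene names in the array files, and all 37 were found, on 43 probes, among 25208 genes tested. They were sorted by function into sterol synthesis (16 genes), sterol sensing and uptake control (6), fatty acid synthesis (7), elongation and desaturation (5) and sterol export (3). All 37 passed the filter on dim probes. Each was well above background on all 50 arrays except Acacb, on 49 arrays, and Thrsp, on 44, and none was saturated.

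Male F344 rats, an inbred strain, were 12 weeks old and were placed in nose-only tubes. Exposed rats breathed P25 TiO2 nanoparticles as an aerosol of 10 mg/m3, and control rats breathed air, for 6 h on 5 days of each week over 4 weeks. The accessory lobe was taken at the end of exposure (D0) or 3, 28, 90 or 180 days after it (D3, D28, D90, D180), from 5 control and 5 exposed rats per day, which made 10 groups. RNA of each rat (100 ng, labelled with Cy3) was read on its own one-colour Agilent array, and values below are log2 fluorescence intensities after quantile normalization.

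Cells make cholesterol from acetyl-CoA through mevalonate, farnesyl diphosphate, squalene and lanosterol. When membrane cholesterol is low, Scap carries the SREBP transcription factors (genes Srebf1 and Srebf2) out of the endoplasmic reticulum, where the Insig proteins otherwise hold them back, and the cleaved factors switch on the genes of this route and of fatty acid synthesis. Sterol excess acts through liver X receptors such as Nr1h3, which drive the export pumps Abca1 and Abcg1. In the lung, alveolar type 2 cells use these routes to make the lipids of surfactant, and alveolar macrophages take surfactant lipid up.

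Promoters of 6 sterol synthesis genes called differentially expressed at D0 or D3, and of Srebf2, the regulator of that route, are shown because the enzymes moved and the regulator's transcript did not pass the test. Each is the stretch of 200 bases before the annotated start in RefSeq (rat assembly GRCr8), read on the gene's strand. Capitals mark the CCAAT box and the GC box (letters GGGCGG) on either strand. On the opposite strand the former is written ATTGG. The latter is written there as CCGCCC. The positions are chr2:53382104-53382303 (plus strand) for Hmgcs1, chr17:66547525-66547724 (minus) for Idi1, chr2:176804817-176805016 (minus) for Fdps, chr19:67414975-67415174 (minus) for Mvd, chr4:30991493-30991692 (plus) for Cyp51, chr1:208444234-208444433 (plus) for Dhcr7 and chr7:115543107-115543306 (plus) for Srebf2.
Hmgcs1: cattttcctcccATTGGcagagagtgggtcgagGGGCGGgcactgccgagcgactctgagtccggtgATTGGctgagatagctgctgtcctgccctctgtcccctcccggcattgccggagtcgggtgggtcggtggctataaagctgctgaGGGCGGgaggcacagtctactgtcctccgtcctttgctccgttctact
Idi1: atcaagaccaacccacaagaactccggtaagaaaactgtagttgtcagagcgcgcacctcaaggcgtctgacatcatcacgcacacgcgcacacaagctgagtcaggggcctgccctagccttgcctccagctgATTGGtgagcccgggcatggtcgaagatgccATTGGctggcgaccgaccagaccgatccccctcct
Fdps: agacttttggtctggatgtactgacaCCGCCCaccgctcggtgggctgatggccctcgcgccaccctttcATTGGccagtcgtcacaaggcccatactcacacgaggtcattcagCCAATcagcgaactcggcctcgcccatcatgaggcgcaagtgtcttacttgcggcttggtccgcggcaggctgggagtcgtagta
Mvd: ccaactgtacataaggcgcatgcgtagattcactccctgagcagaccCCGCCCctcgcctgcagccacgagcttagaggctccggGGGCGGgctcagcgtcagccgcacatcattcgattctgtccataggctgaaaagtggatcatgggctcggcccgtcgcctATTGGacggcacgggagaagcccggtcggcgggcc
Cyp51: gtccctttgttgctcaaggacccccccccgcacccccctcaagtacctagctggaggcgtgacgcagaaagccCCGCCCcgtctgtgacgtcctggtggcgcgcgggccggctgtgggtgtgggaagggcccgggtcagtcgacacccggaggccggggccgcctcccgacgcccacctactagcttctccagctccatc
Dhcr7: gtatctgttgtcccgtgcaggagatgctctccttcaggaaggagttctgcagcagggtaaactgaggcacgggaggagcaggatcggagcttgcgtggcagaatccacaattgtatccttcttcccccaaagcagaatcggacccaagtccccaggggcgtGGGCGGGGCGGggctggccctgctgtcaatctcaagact
Srebf2: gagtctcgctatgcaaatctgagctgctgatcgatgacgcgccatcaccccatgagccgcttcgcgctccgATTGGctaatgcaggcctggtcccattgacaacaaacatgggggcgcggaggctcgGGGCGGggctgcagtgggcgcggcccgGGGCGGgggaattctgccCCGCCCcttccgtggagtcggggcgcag

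A window from 250 bases before the start to the start was found for 29 of the 37 genes, 13 of them in sterol synthesis. The CCAAT box was in 20 of the 29 windows (69%), against 34% of all 33469 windows in the table and 35.1% of the 12627 windows of genes tested here. It was in 10 of the 13 sterol synthesis windows. GGGCGG was in 23 of 29 (79.3%), against 30.5% of all windows and 50.7% of those of tested genes, and in 11 of 13 sterol synthesis windows. CACGTG (E-box) was in 4 windows, those of Insig1, Scap, Elovl5 and Abca1 (13.8%, against 5.59% of all windows and 7.24% of those of tested genes). TCACNCCAC, a core of the sterol regulatory element, was in 0 of 29 windows and in 0.974% of all windows and 0.966% of those of tested genes. At a share that low, 0 of 29 does not set these genes apart from others. Other spellings of the element were not searched, so its absence is not shown. These matches are letters in a fixed window, searched on both strands, and GC boxes that ran together, as in Dhcr7, were marked as 1 run.

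The arrays came from 7 slides. The first 3 days shared 4 slides and the last 2 days shared 3 more, which also carried 1 array of D3 (exposed replicate 1), and every slide held control and exposed rats, though slide 2 had no exposed rat of D28 and slide 7 no control rat of D3. Median processed signal per array ran from 198 to 473 linear units, with 68.7% to 84.5% of gene spots well above background. The lung markers Sftpc, Scgb1a1, Ager and Pecam1 were well above background on all 50 arrays. Fold changes and adjusted p-values below come from 1 limma fit over all 50 arrays, with Benjamini-Hochberg adjustment over 25208 genes. A gene passed at an adjusted p under 0.05 and was a differentially expressed gene (DEG) when its change was also at least 1.5-fold. In whole-lobe RNA, fewer cells of a type and less RNA per cell cannot be told apart.

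At D0 the enzymes of sterol synthesis were over-expressed in exposed lungs along most of the route, from acetyl-CoA to cholesterol. Of the 37 genes 14 rose and 0 fell, against 6.93% of all genes tested that rose and 6.58% that fell. Among the 16 sterol synthesis genes 10 rose, and their median log2 change was 0.54, beside 0.14 for the 37 genes and -0.01 for all genes. There were 7 DEGs, all in sterol synthesis, where 2.77% of all genes were DEGs with higher levels. In 12 of the 37 genes every exposed rat lay above every control rat, against 4.76% of all genes.

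**Figure D1:**
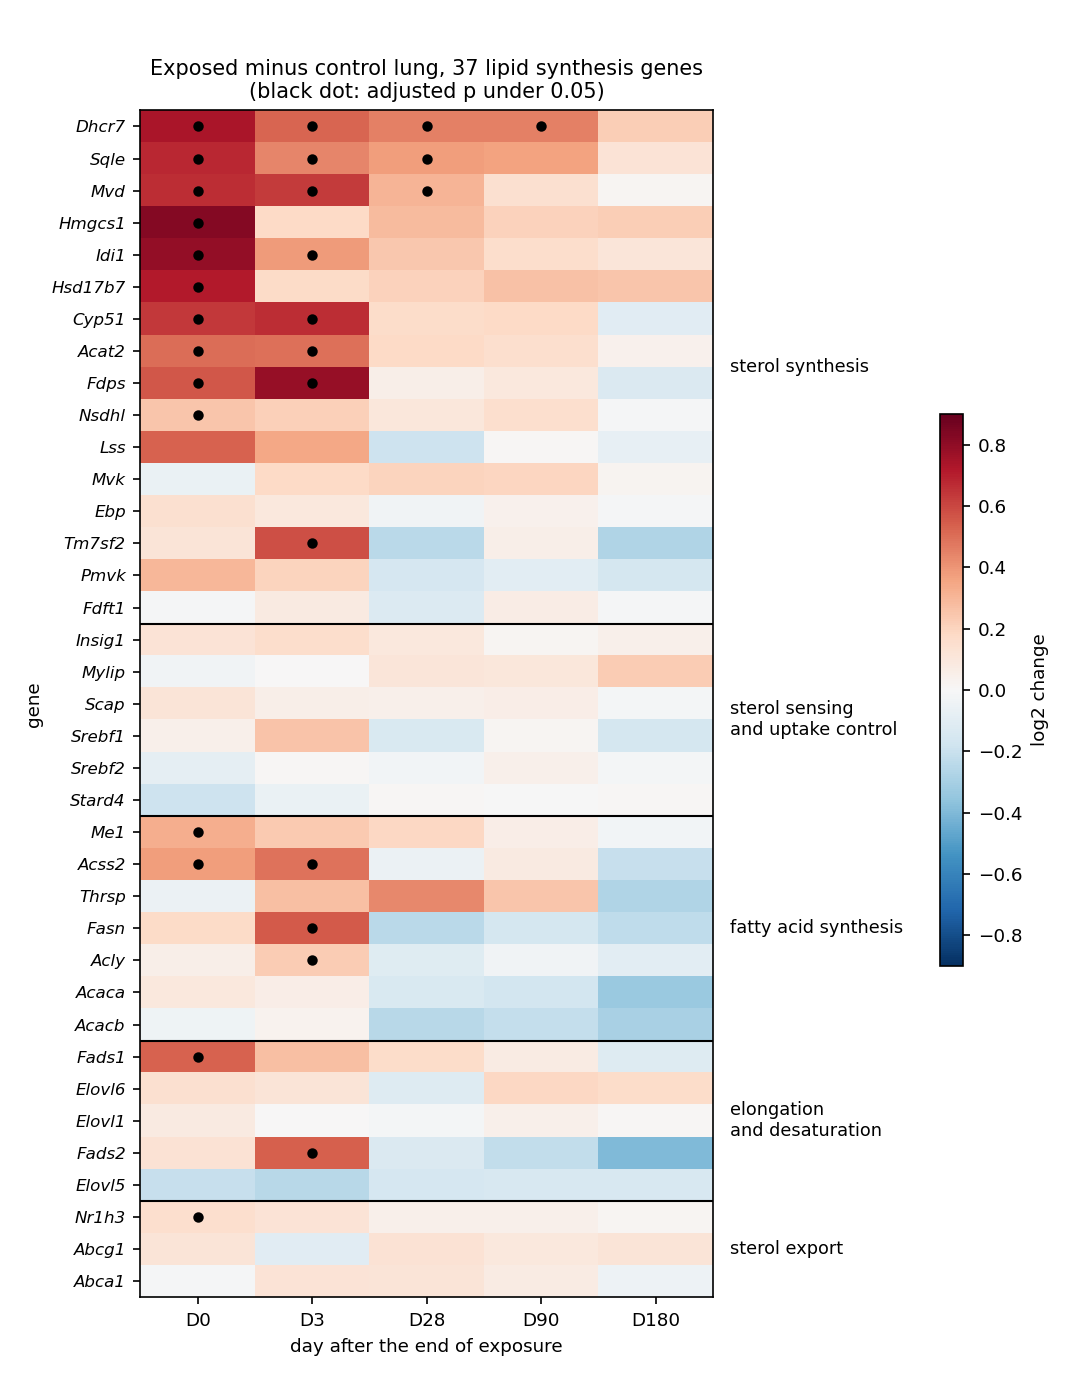
Log2 change (exposed minus control, colour) of each of the 37 genes at D0, D3, D28, D90 and D180, grouped by role, with black dots for genes that passed at an adjusted p under 0.05. Dots lie mostly in the sterol synthesis block at D0 (10 of 16 genes) and D3 (8 of 16), with 3 at D28, 1 at D90 and 0 at D180.

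Hmgcs1 encodes the synthase that makes HMG-CoA, an early step towards mevalonate. Its log2 intensity at D0 was 13.05, 13.13, 13.15, 12.84 and 12.99 in the 5 control rats and 13.73, 13.64, 13.74, 14.25 and 13.91 in the 5 exposed rats. All exposed rats lay above all control rats, and the fourth exposed rat was the highest. The change was 0.82 ± 0.12 (log2, SE, n = 5 per group), or 1.77-fold (adjusted p = 6.61e-07). Acat2, whose product forms the acetoacetyl-CoA that Hmgcs1 uses, rose 1.42-fold (adjusted p = 1.98e-07).

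Mvd and Idi1 follow on the route, the former giving isopentenyl diphosphate and the latter its isomer. Mvd was at 10.20, 9.91, 9.97, 10.14 and 10.30 in control rats and at 10.77, 10.71, 10.68, 10.97 and 10.70 in exposed rats. Idi1 was at 11.07, 11.12, 11.32, 11.04 and 11.24 in control rats and at 11.94, 11.63, 11.78, 12.24 and 12.16 in exposed rats. Neither gene had any overlap between groups. Mvd rose by 0.66 ± 0.09 (1.58-fold, adjusted p = 3.41e-07) and Idi1 by 0.79 ± 0.12 (1.73-fold, adjusted p = 1.47e-06). Fdps, the farnesyl diphosphate synthase, rose 1.47-fold (adjusted p = 1.01e-07), just under the DEG limit.

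Squalene epoxidase (Sqle) makes the substrate of lanosterol synthase (Lss), and Cyp51 removes a methyl group from lanosterol. Sqle was at 12.16, 11.80, 11.99, 12.01 and 12.28 in control rats and at 12.81, 12.67, 12.40, 13.05 and 12.71 in exposed rats. For Cyp51 the values were 10.58, 10.62, 10.65, 10.68 and 10.74 in control rats and 11.20, 11.12, 11.30, 11.48 and 11.34 in exposed rats. Groups were apart in both genes, most closely in Sqle between its highest control and its lowest exposed rat. Sqle rose by 0.68 ± 0.11 (1.60-fold, adjusted p = 1.19e-05) and Cyp51 by 0.64 ± 0.08 (1.56-fold, adjusted p = 1.52e-08).

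Hsd17b7 and Nsdhl act in removing methyl groups after Cyp51, and Dhcr7 is the reductase of a last step to cholesterol. Hsd17b7 was at 7.99, 8.10, 8.30, 7.69 and 7.82 in control rats and at 8.49, 8.45, 8.75, 8.78 and 9.003 in exposed rats. Dhcr7 was at 8.99, 8.85, 9.09, 8.995 and 9.35 in control rats and at 9.73, 9.69, 9.73, 10.01 and 9.78 in exposed rats. Again no exposed rat lay within the control range. Hsd17b7 rose by 0.71 ± 0.13 (1.64-fold, adjusted p = 6.7e-05) and Dhcr7 by 0.73 ± 0.11 (1.66-fold, adjusted p = 1.22e-06). Nsdhl rose 1.19-fold with overlapping groups (adjusted p = 0.0316), a call that ended without control replicate 1 or 4 or exposed replicate 3 or 5 (adjusted p = 0.103 to 0.125).

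**Figure D2:**
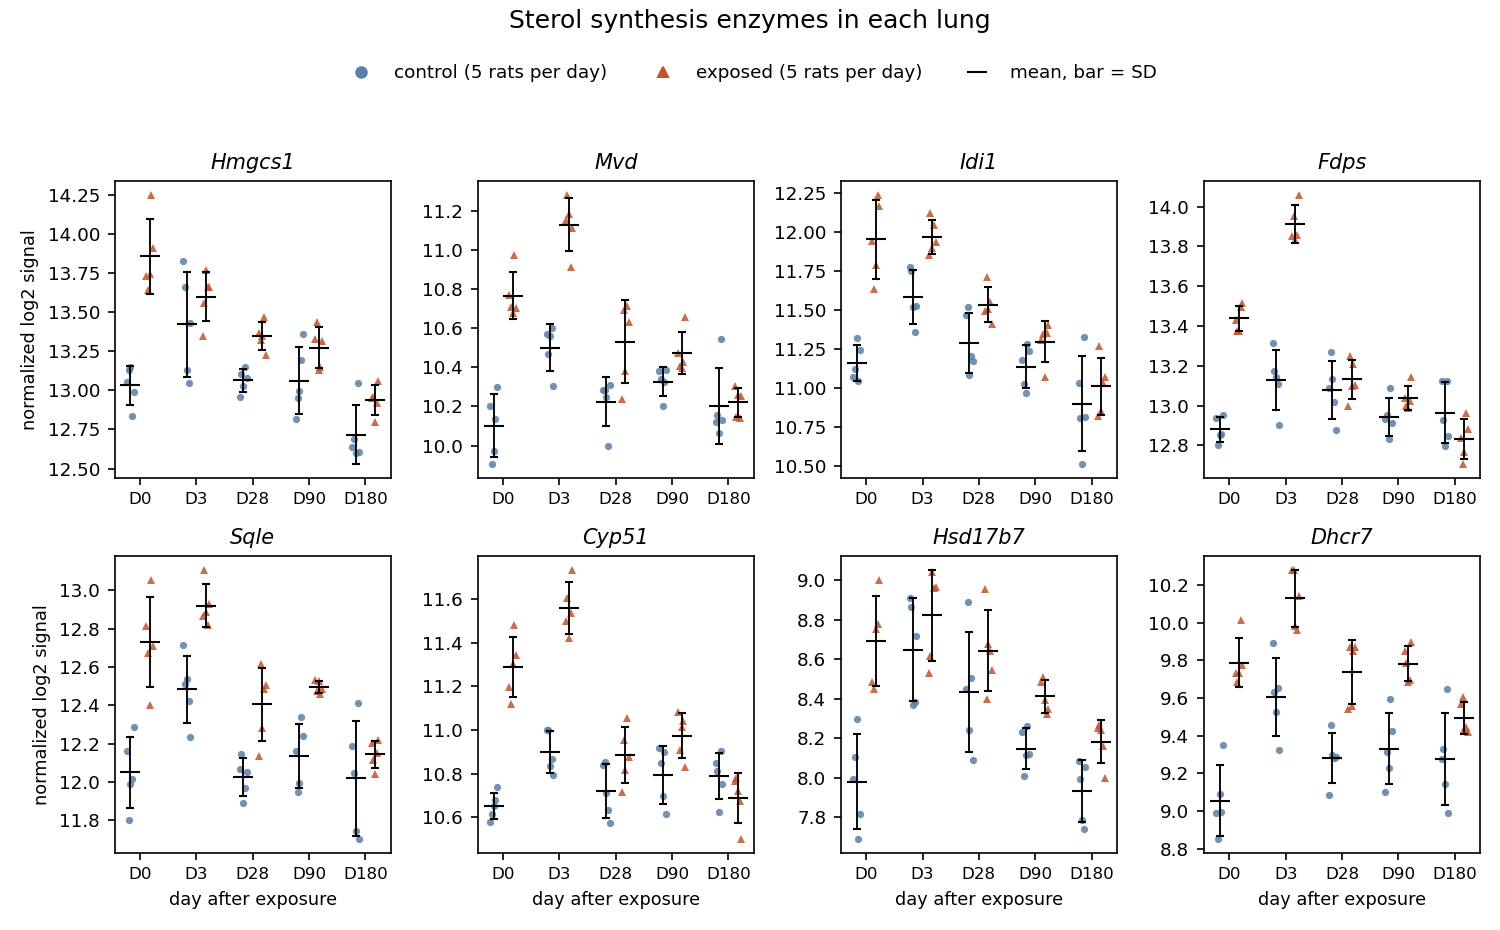
Normalized log2 intensity per rat (points) of 8 sterol synthesis genes in control and exposed lungs at D0, D3, D28, D90 and D180, with black marks for group means and SD. Exposed rats lie above control rats without overlap in all 8 genes at D0, while Hmgcs1 and Hsd17b7 overlap at D3.

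The other 6 sterol synthesis genes did not pass at D0. Lss was at 10.34, 10.85, 11.18, 10.23 and 10.32 in control rats and at 10.89, 10.64, 11.52, 10.89 and 11.62 in exposed rats. Its groups overlapped, and the change of 0.53 ± 0.23 had an adjusted p of 0.145. Within each of the 4 slides Lss was higher in exposed rats, by 0.44 to 0.67, and with slide as a block it rose by 0.55 (adjusted p = 5.27e-05). Pmvk, a mevalonate pathway kinase, changed by 0.30 (adjusted p = 0.0577) and Tm7sf2, a sterol reductase, by 0.11. Ebp, Mvk and Fdft1, the squalene synthase, lay between -0.06 and 0.14.

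Transcripts of the sensing machinery did not pass at D0 or D3. Of its 6 genes 0 passed in limma at either day, and 0 had an unadjusted p under 0.05. Srebf2 had a log2 change of -0.08 at D0 (95% interval -0.21 to 0.04) and of 0.01 at D3 (-0.11 to 0.14). Srebf1 changed by 0.04 at D0 (-0.33 to 0.42) and by 0.26 at D3 (-0.12 to 0.63). Scap changed by 0.12 (-0.07 to 0.31) and 0.05 (-0.14 to 0.24) at those days.

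Insig1, which holds the SREBP complex back and is itself an SREBP target, came closest to passing in this group, at D3. It was at 12.26, 12.24, 11.96, 12.08 and 12.01 in control rats and at 11.95, 12.22, 12.43, 12.26 and 12.45 in exposed rats. The groups overlapped, and replicate 1 of the exposed rats, on a slide of the later days, was the lowest of all 10. The change was 0.16 ± 0.08 (adjusted p = 0.247). With slide as a block it was 0.24 (adjusted p = 0.0182), and Srebf1 then rose by 0.36 (adjusted p = 0.00148). Mylip, a ubiquitin ligase that removes lipoprotein receptors, and Stard4, a sterol carrier, changed by -0.03 and -0.19 at D0 and by 0.00 and -0.06 at D3. Stard4 had 2 probes, and the other probe, chosen for mention after its values were seen, gave 0.10 at D0 and 0.32 at D3. With slide as a block the probe in use fell by 0.21 at D0 (adjusted p = 0.00205).

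Fatty acid genes moved less at D0, where 2 of 7 rose with a median log2 change of 0.10. Acss2, which makes acetyl-CoA from acetate, rose 1.30-fold (adjusted p = 9.32e-05). Me1, the malic enzyme that supplies NADPH, rose 1.26-fold (adjusted p = 0.0036). Fasn, the fatty acid synthase, changed by 0.17 and Acly, the ATP citrate lyase, by 0.05, and neither passed. Acaca and Acacb, the acetyl-CoA carboxylases, and Thrsp, a lipogenic regulator, lay between -0.05 and 0.10.

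In elongation and desaturation, the leading gene was Fads1, a desaturase of polyunsaturated fatty acids. At D0 it was at 11.10, 11.12, 11.10, 10.75 and 11.01 in control rats and at 11.34, 11.51, 11.66, 11.49 and 11.75 in exposed rats. The groups were apart, and the fourth control rat was the lowest. Fads1 rose by 0.53 ± 0.10 (1.45-fold, adjusted p = 0.0001). Its partner Fads2 and the elongases Elovl1 and Elovl6 did not pass, with changes of 0.13, 0.08 and 0.14. Elovl5 changed by -0.20 and passed with slide as a block, where it fell by 0.18 (adjusted p = 0.0366).

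Among the export genes, Nr1h3 was at 12.83, 12.86, 12.82, 12.80 and 12.84 in control rats and at 12.90, 12.99, 13.06, 12.93 and 13.02 in exposed rats at D0. Exposed rats lay above control rats in all cases, but the shift was small beside those of the sterol enzymes. Nr1h3 rose by 0.15 ± 0.04 (1.11-fold, adjusted p = 0.0138), and it did not pass when replicate 3 of the exposed rats was left out (0.13, adjusted p = 0.0589). Its target pumps Abca1 and Abcg1 changed by -0.01 (95% interval -0.20 to 0.18) and 0.11 (-0.10 to 0.33).

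**Figure D3:**
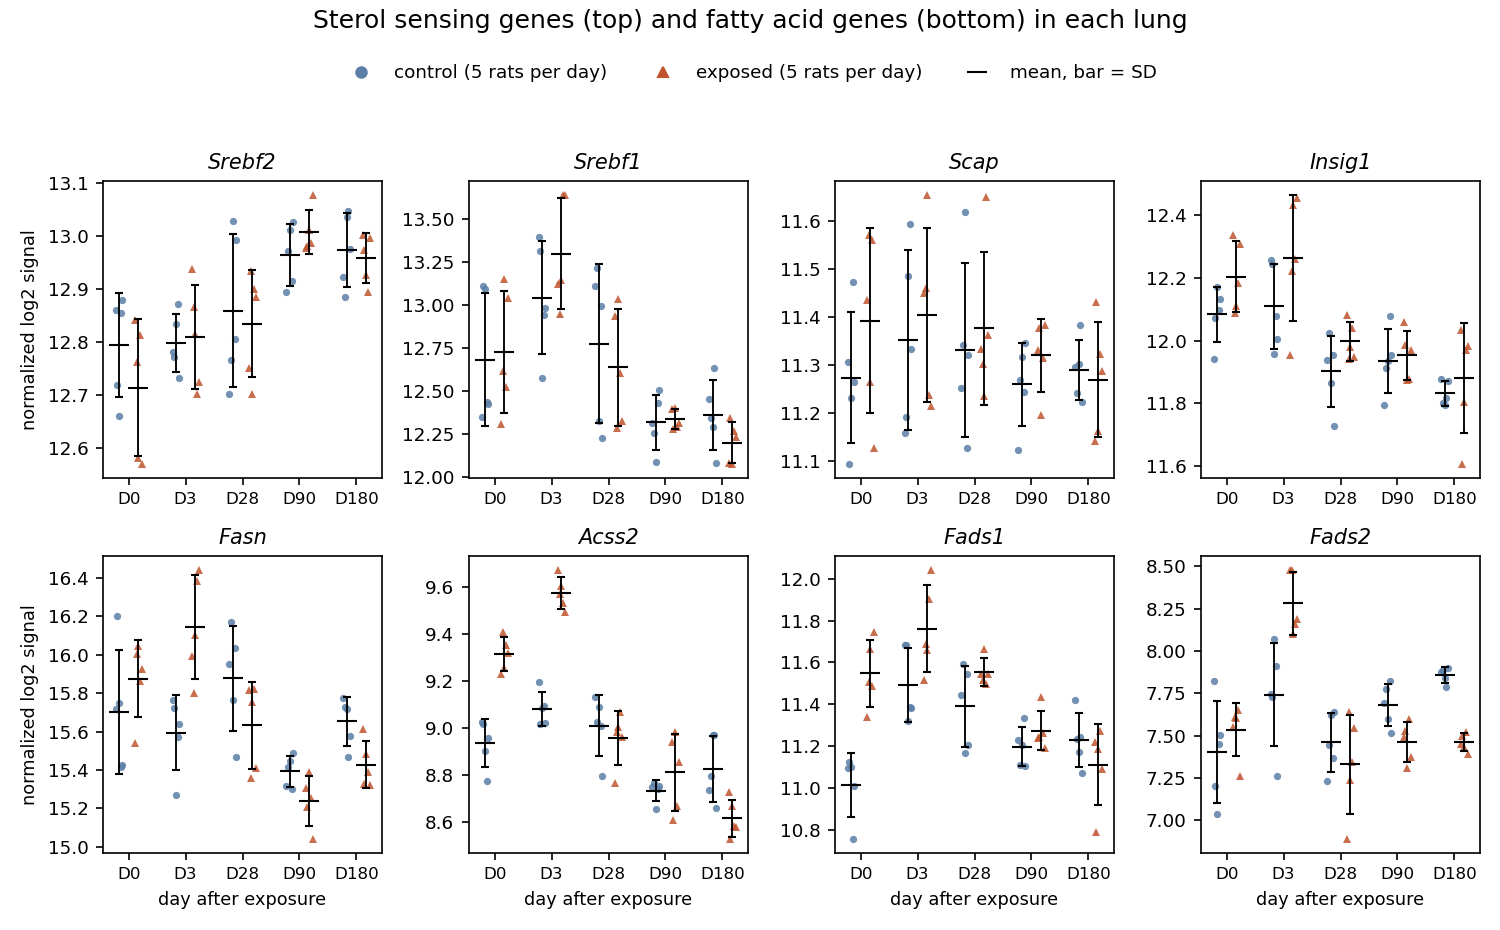
Normalized log2 intensity per rat (points) of Srebf2, Srebf1, Scap, Insig1, Fasn, Acss2, Fads1 and Fads2 in control and exposed lungs at D0, D3, D28, D90 and D180, with black marks for group means and SD. The regulators overlap between groups at D0 and D3, Fasn, Acss2 and Fads2 are apart at D3, and Fads2 lies lower in exposed rats at D180.

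Within slides at D0, all 14 genes that passed were higher in exposed rats on 4 of 4 slides. Where every exposed rat lay above every control rat, as in 12 of the 37 genes, this direction follows of itself. It is therefore no added support for those genes. The within-slide change was 0.62 to 1.11 for Hmgcs1, 0.66 to 0.89 for Idi1, 0.52 to 0.77 for Mvd and 0.59 to 0.85 for Sqle. It was 0.54 to 0.69 for Cyp51, 0.48 to 0.66 for Fdps, 0.58 to 0.92 for Hsd17b7 and 0.56 to 0.88 for Dhcr7. The remaining 6 lay within 0.38 to 0.64 for Acat2, 0.24 to 0.60 for Acss2, 0.29 to 0.74 for Fads1, 0.17 to 0.40 for Me1, 0.15 to 0.36 for Nsdhl and 0.07 to 0.20 for Nr1h3. With slide as a block 19 genes passed, of which 17 rose and 2 fell, and these added Lss, Pmvk, Ebp, Stard4 and Elovl5. The block raised the count over all 25208 genes too, with 7082 that passed, while 1748 rose and 1658 fell without it.

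At D3 sterol enzymes were again over-expressed in exposed lungs, and 3 genes of fatty acid synthesis rose. Of the 37 genes 12 rose and 0 fell, against 4.89% and 5.53% of all genes, and 3 were DEGs with higher levels, against 1.98%. The median log2 change was 0.20 over the 37 genes, 0.37 in sterol synthesis, where 8 of 16 rose, and 0.23 in fatty acid synthesis, where 3 of 7 rose. In 13 genes all 5 exposed rats lay above all 5 control rats, against 3.35% of all genes. With only the 10 arrays of D3 in the fit 7 genes passed, all of them among the 12, without Idi1, Tm7sf2, Fasn, Acly and Fads2. Of the fatty acid synthesis genes only Acss2 was then left. With slide as a block 22 passed. That block gave 4933 of all 25208 genes at D3, while 1233 rose and 1395 fell without it.

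Fdps had the smallest adjusted p of the 37 genes at any day. At D3 it was at 13.31, 13.17, 13.14, 13.11 and 12.90 in control rats and at 13.85, 13.95, 13.83, 13.86 and 14.06 in exposed rats. The groups were well apart, and the change was 0.78 ± 0.07 (1.72-fold, adjusted p = 4.34e-11). It lay between 0.54 and 1.02 within the 4 slides, and the second probe of Fdps gave 0.86.

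Cyp51 at D3 was at 10.9997, 10.9988, 10.83, 10.87 and 10.79 in control rats and at 11.50, 11.61, 11.42, 11.54 and 11.74 in exposed rats. Mvd was at 10.57, 10.47, 10.56, 10.60 and 10.31 in control rats and at 11.15, 11.28, 11.18, 10.91 and 11.11 in exposed rats. In both genes the groups did not overlap. Cyp51 rose by 0.66 ± 0.08 (1.58-fold, adjusted p = 1.08e-08) and Mvd by 0.63 ± 0.09 (1.54-fold, adjusted p = 1.76e-06). Tm7sf2, which had not passed at D0, rose 1.49-fold (adjusted p = 0.00104). Dhcr7 rose 1.44-fold, Acat2 1.41-fold, Sqle 1.35-fold and Idi1 1.30-fold, and the call of Idi1 ended without control replicate 4 or 5 or exposed replicate 2 (adjusted p = 0.0598 to 0.0796).

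Hmgcs1 and Hsd17b7, DEGs at D0, did not pass at D3. Hmgcs1 was at 13.83, 13.66, 13.13, 13.05 and 13.43 in control rats and at 13.35, 13.56, 13.77, 13.66 and 13.66 in exposed rats. The control rats spread wider than at D0 and covered the exposed range. The change was 0.18 (adjusted p = 0.405), and 3 of 4 slides showed a higher level in exposed rats. The exposure effect on Hmgcs1 was smaller at D3 than at D0 by 0.65 (adjusted p = 0.036), the only such difference among the 37 genes at D3, where 0.607% of all genes had one in this direction. This call ended when any 1 of 9 of its 20 arrays was left out (control replicates 4 and 5 and exposed replicates 4 and 5 of D0, control replicates 1, 2 and 5 and exposed replicates 1 and 2 of D3), with adjusted p = 0.0563 to 0.111.

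Fatty acid genes at D3 were led by Acss2, at 9.19, 9.02, 9.09, 9.09 and 9.02 in control rats and at 9.67, 9.57, 9.60, 9.53 and 9.49 in exposed rats. Its groups were apart, and it rose by 0.49 ± 0.07 (1.41-fold, adjusted p = 1.39e-06). Fasn rose 1.47-fold (adjusted p = 0.00305), Acly 1.17-fold (adjusted p = 0.0075) and Fads2 1.45-fold (adjusted p = 0.00229). Fasn was higher by 0.53 to 0.76 and Fads2 by 0.19 to 0.70 within the 4 slides. Fads1, Me1 and Nr1h3, which rose at D0, changed by 0.27, 0.23 and 0.12 at D3 and did not pass (adjusted p = 0.0733, 0.0595 and 0.0605). The exposure effects of Fasn, Acly, Fads2 and Tm7sf2 did not pass a test of difference between D3 and D0.

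**Figure D4:**
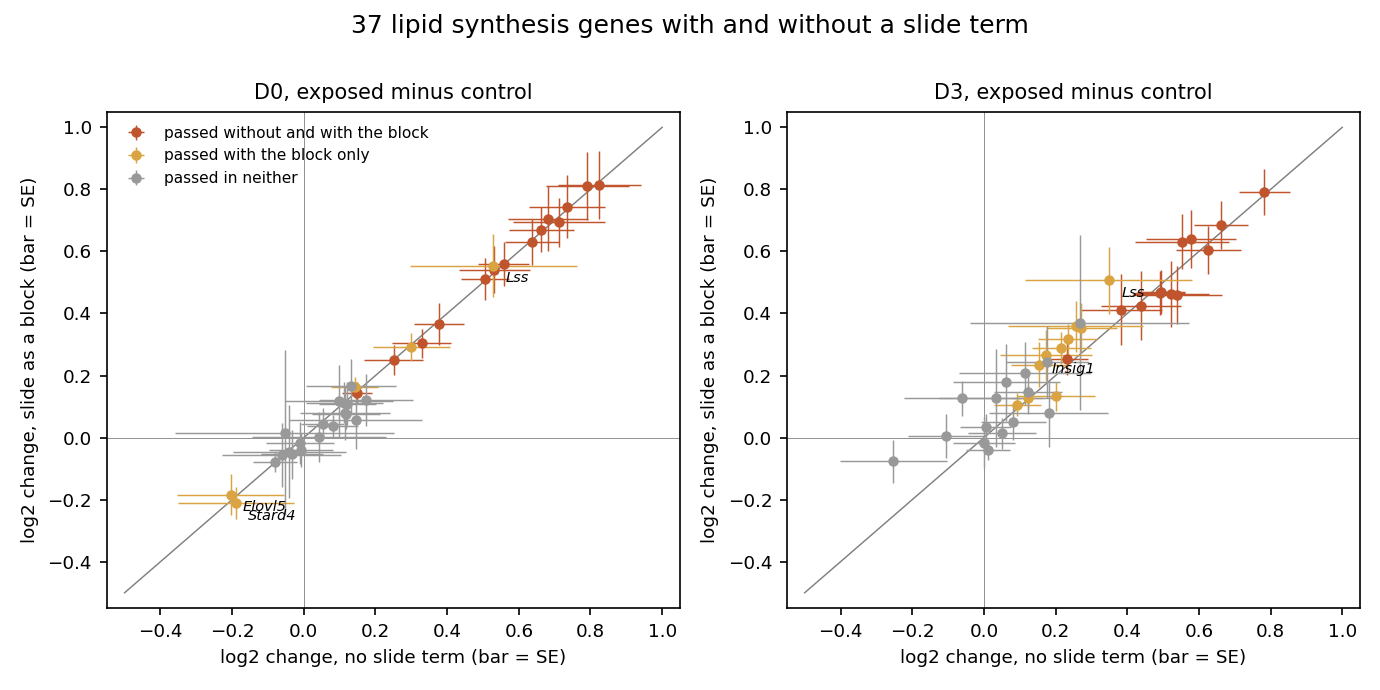
Log2 change (exposed minus control) of the 37 genes without a slide term (x axis) against that with slide as a block (y axis) at D0 and D3, with SE bars and the line of equal values, coloured by whether a gene passed in both fits, with the block only, or in neither. Points lie near the line, and the genes that passed with the block only include Lss at both days and Insig1 at D3.

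From D28 on few of the genes passed. At D28 3 rose and 0 fell, against 2.44% and 1.44% of all genes. Dhcr7 was at 9.09, 9.46, 9.30, 9.28 and 9.29 in control rats and at 9.54, 9.87, 9.56, 9.85 and 9.87 in exposed rats at D28. These values did not overlap, and Dhcr7 rose 1.37-fold (adjusted p = 0.00657). Sqle rose 1.30-fold (adjusted p = 0.0409) and Mvd 1.24-fold (adjusted p = 0.0426), with overlapping groups. The calls of Sqle and Mvd each ended without any 1 of control replicates 1, 3 and 4 and exposed replicates 2, 4 and 5, or without control replicate 2 (Mvd) or 5 (Sqle), with adjusted p up to 0.158 and 0.144, and none of the 3 genes passed with only the arrays of D28 in the fit or with the clock output score as a covariate. Mvd also did not pass with 75th percentile scaling, normexp, replicate number as a block or the series matrix (adjusted p = 0.0507, 0.0525, 0.0548 and 0.0641). With slide as a block 7 genes passed, and 1 of them, Pmvk, fell by 0.22 (adjusted p = 0.000741). Over all 25208 genes 3129 passed at D28 with that block, and 25 with the clock output score as a covariate.

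Dhcr7 was the only one of the 37 genes to rise at D90, where 0 fell and 0.69% and 0.357% of all genes rose and fell. It was at 9.10, 9.31, 9.23, 9.59 and 9.43 in control rats and at 9.85, 9.79, 9.69, 9.70 and 9.90 in exposed rats. No exposed rat lay in the control range, and the rise was 1.37-fold (adjusted p = 0.019). It did not pass without replicate 1 or 3 of the control rats or replicate 5 of the exposed rats (adjusted p = 0.0621 to 0.107), nor with only the arrays of D90 in the fit or with the clock output score as a covariate. With that covariate 1 of all 25208 genes passed at D90. Sqle changed by 0.36 at D90 (adjusted p = 0.137). The 16 sterol synthesis genes had changes from -0.10 to 0.45 at D90, with a median of 0.15, beside 0.00 for all genes.

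At D180 0 of the 37 genes passed in limma, against 0.635% of all genes that rose and 0.258% that fell, and 6 had an unadjusted p under 0.05 (2 higher, 4 lower). Median log2 change was -0.01 over the 37 genes and 0.00 in sterol synthesis, beside 0.00 for all genes. In fatty acid synthesis it was -0.23, with changes from -0.34 to -0.02. Fads2, chosen for mention after its values were seen, was at 7.88, 7.89, 7.84, 7.78 and 7.90 in control rats and at 7.45, 7.50, 7.44, 7.52 and 7.39 in exposed rats. The groups did not overlap, with a change of -0.40 (95% interval -0.65 to -0.15) that did not pass (adjusted p = 0.148). On all 3 slides it was lower in exposed rats, by -0.45 to -0.37, a direction that follows from groups without overlap. Fads2 passed with slide as a block (-0.42, adjusted p = 0.00401) and with only the arrays of D180 in the fit (-0.40, adjusted p = 0.00726).

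The exposure effect of several sterol enzymes was smaller at later days than at D0 in the fit without a clock term. All these tests and the D0 comparison share the D0 rats. With the clock output score, described below, as a covariate, none of these differences at D28, D90 or D180 passed. Few calls of any gene were left with this covariate, as 0, 8 and 4 of all 25208 genes passed at those days. The difference of Idi1 was then -0.01 at D90 (beside -0.63) and -0.09 at D180 (beside -0.68), and that of Cyp51 was -0.12 at both D28 and D90 (beside -0.48 and -0.46). At D28 the effect was smaller in 3 of 37 genes (1.54% of all genes), namely Fdps by -0.50, Cyp51 by -0.48 and Acss2 by -0.43. At D90 it was smaller in 6 genes (2.19% of all genes), namely Idi1 (-0.63), Hmgcs1 (-0.61), Mvd (-0.52), Fdps (-0.46), Cyp51 (-0.46) and Acat2 (-0.35). The D90 calls of Hmgcs1 and Acat2 each ended without exposed replicate 4 of D0, or without control replicate 5 of D90 (Hmgcs1) or 2 of D0 (Acat2), with adjusted p up to 0.0616 and 0.0622.

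By D180 it was smaller in 10 genes (2.07% of all genes), of which 8 belong to sterol synthesis. They were Cyp51 (-0.74, adjusted p = 5.23e-06), Fdps (-0.69, adjusted p = 7.01e-06), Idi1 (-0.68), Mvd (-0.65), Fads1 (-0.65), Hmgcs1 (-0.60), Acss2 (-0.59), Sqle (-0.56), Dhcr7 (-0.51) and Acat2 (-0.47). Their adjusted p-values ran up to 0.0385, that of Dhcr7. The D180 calls of Dhcr7, Sqle and Hmgcs1 ended when any 1 of 11, 9 and 4 of their 20 arrays was left out, with adjusted p up to 0.118, 0.0976 and 0.0693. The slides of D90 and D180 were not those of D0, so slide and day cannot be told apart in the level of a group. No gene of sterol sensing or export passed a test of difference in its exposure effect between D0 and a later day. At D180, 1 sensing gene (positive difference) and 1 export gene (negative) had an unadjusted p under 0.05 in limma.

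Averaged over the 5 days, 14 genes rose and 0 fell, against 9.96% and 9.77% of all genes. These were 10 of sterol synthesis, 2 of fatty acid synthesis, Fads1 and Nr1h3, the same 14 genes that rose at D0. The D0 rats are part of this mean, so it does not show a rise shared by the 5 days. Day by day, the median log2 change in sterol synthesis was 0.54, 0.37, 0.17, 0.15 and 0.00. Dhcr7 rose by 0.48 (adjusted p = 1.21e-10), Sqle by 0.40, Mvd by 0.35, Hmgcs1 and Idi1 by 0.34, Hsd17b7 by 0.32 and Cyp51 by 0.31. Fdps and Acat2 rose by 0.27, and Fads1 (0.19), Me1 (0.16), Nsdhl (0.14), Acss2 (0.14) and Nr1h3 (0.08) rose by less. Over the 16 sterol synthesis genes the mean change ran from 0.00 to 0.48, with a median of 0.27, beside -0.01 for all genes.

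Control lungs differed between days too. From D0 to D3, 12 of the 37 genes rose in control rats and 0 fell, against 3.93% of all genes that rose. The control rats of D0 are also those of the D0 exposure comparison. Hsd17b7 rose by 0.67 (1.59-fold, adjusted p = 0.000397), Dhcr7 by 0.55, Fads1 by 0.47, Sqle by 0.43, Idi1 by 0.42, Mvd by 0.40, Hmgcs1 and Acat2 by 0.39, Me1 by 0.38, Nsdhl by 0.31 and Fdps and Cyp51 by 0.25. Hsd17b7 was at 8.91, 8.86, 8.37, 8.38 and 8.72 in the control rats of D3, within or just below the range of the exposed rats of D0 (8.45 to 9.003) and above every control rat of D0. Only Acat2 passed with just these 10 arrays in the fit, and 7 genes passed when replicate 1 of the control rats at D3 was left out, without Hmgcs1, Idi1, Nsdhl, Fdps and Cyp51.

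Later control groups moved less. From D3 to D28 Sqle fell by 0.46 (adjusted p = 0.0179) and Acat2 by 0.32 (adjusted p = 0.00414), 2 of the 37 genes against 0.69% of all genes. Sqle did not pass without control replicate 1 of D3 or 3 of D28 (adjusted p = 0.0672 to 0.0848). From D90 to D180 0 of the 37 genes passed in limma and 3 had an unadjusted p under 0.05, while 0.00397% of all genes rose and 0.0238% fell. The 2 sets of slides were not compared for control rats.

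Clock genes differed between exposed and control rats at every day. The mean of 8 clock output genes, each centred on its own average of all 50 arrays (log2), was 0.83 to 1.21 in control rats and -0.36 to 0.28 in exposed rats at D0. At D3 it was 0.75 to 1.03 and -0.46 to 0.01. At D28 the order turned, with -1.20 to -0.90 in control rats and 0.12 to 0.77 in exposed rats, and it was the same way round at D90 and D180. Among the 8 genes 1 rose and 6 fell at D0 (6.93% and 6.58% of all genes), with changes from -3.27 to 1.06. At D3 1 rose and 6 fell (4.89% and 5.53%), and at D28 7 rose and 0 fell (2.44% and 1.44%). Nr1d1, a repressor of the clock, and Dbp, a transcription factor under its control, fell by 3.27 and 1.95 at D0, and rose by 3.04 and 3.27 at D28. Of the 37 genes, 14 and 12 rose at D0 and D3, when the clock output score was lower in exposed rats, and 3, 1 and 0 rose at D28, D90 and D180, when it was higher. The share of all genes that rose declined as well, from 6.93% and 4.89% to 2.44%, 0.69% and 0.635% at these days.

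With the clock output score as a covariate, 6 of the 37 genes passed at D0, 4 at D3 and 0 at D28 or D90. Over all 25208 genes 668 passed at D0, 345 at D3, 25 at D28 and 1 at D90. At D0 the 6 of the 37 genes were Hmgcs1 (0.76), Mvd (0.64), Acat2 (0.54), Fdps (0.53), Cyp51 (0.49) and Acss2 (0.45). The 4 at D3 were Fdps (0.75), Acss2 (0.56), Acat2 (0.53) and Cyp51 (0.51). Averaged over the 5 days 10 of the 37 genes passed with the clock output score as a covariate, beside 2169 of all 25208 genes. Within a day the score did not overlap between the groups, and the standard errors grew with it. Some changes kept their size with a wider error, as for Sqle at D0 (0.67 ± 0.20 beside 0.68 ± 0.11) and Fasn at D3 (0.55 ± 0.24 beside 0.55 ± 0.13). Others shrank, namely Idi1 from 0.79 to 0.52 at D0 and from 0.38 to 0.10 at D3, and Nsdhl from 0.25 to 0.09 at D0. The labels give no time of day for the sampling, and beyond this covariate the part of the clock genes in these results was not tested.

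**Figure D5:**
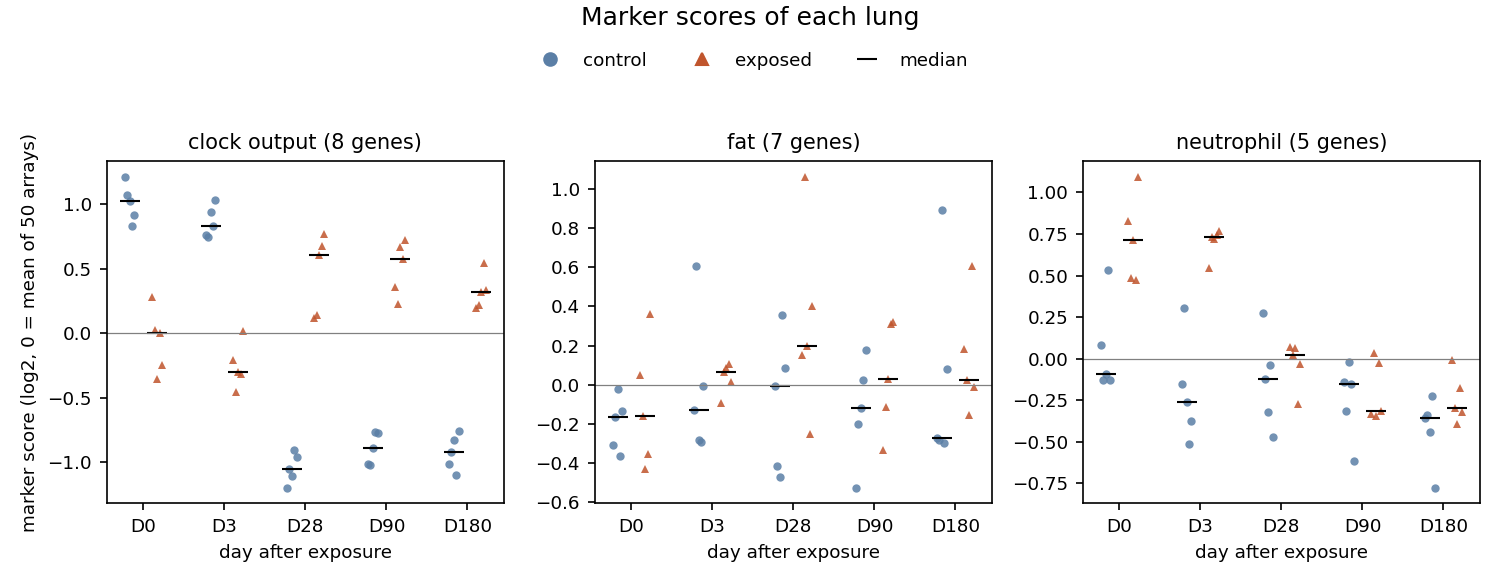
Mean of centred log2 values over clock output (8 genes), fat (7) and neutrophil (5) markers per rat, in control and exposed lungs at the 5 days, with black marks for medians. Clock output is apart between groups at every day and turns between D3 and D28, fat overlaps at D0 and D3, and neutrophil markers lie higher in most exposed rats at D0 and D3.

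Fat cells are rich in several of these transcripts. Of 7 fat markers 0 passed in limma at D0, D3, D28, D90 or D180, with 3 at D0 and 1 at D3 at an unadjusted p under 0.05, and the fat score at D0 was -0.37 to -0.02 in control and -0.43 to 0.36 in exposed rats. Plin1 was well above background on 1 of 50 arrays and Lep on 9, while Adipoq was so on 30. None of the 37 genes had a slope on the fat score that passed, where 0.0397% of all genes did, and with the score as a covariate 15 passed at D0 and 12 at D3.

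Some markers of other cells differed between the groups at D0 and D3, and some did so at D28. Of 9 alveolar type 2 markers 4 rose and 1 fell at D0 (6.93% and 6.58% of all genes), Sftpa1 by 0.48, Lamp3 by 0.58, Sftpd by 0.34 and Slc34a2 by 0.32 against Etv5, which fell by 0.36, and the score was -0.15 to -0.06 in control and 0.04 to 0.11 in exposed rats. At D3 3 rose and 1 fell (4.89% and 5.53% of all genes), with scores of -0.11 to -0.03 and 0.05 to 0.12. The type 2 scores were still apart at D28, at -0.11 to -0.01 and 0.07 to 0.13. Of 9 macrophage markers 2 rose and 0 fell at D0 (against the same 6.93% and 6.58%), Spp1 by 2.40 and Trem2 by 0.41. The 9 changes ran from -0.26 to 2.40, with a median of 0.36. The macrophage score, which includes Spp1, was -0.34 to -0.13 in control and -0.07 to 0.63 in exposed rats at D0, with means of -0.02 and 0.37 at D28. At D3 1 of the 9 rose and 0 fell (4.89% and 5.53% of all genes), with changes from -0.28 to 2.69 and a median of 0.02. Of 5 neutrophil markers 2 rose and 0 fell at D0 (against the same 6.93% and 6.58%), S100a8 by 1.37 and S100a9 by 1.69. The 5 changes ran from -0.27 to 1.69, with a median of 0.37. The neutrophil score was -0.13 to 0.53 in control and 0.47 to 1.09 in exposed rats. Of the 4 lung markers, Ager and Pecam1 fell at D0, by 0.39 and 0.48, and the mean score of the 4 was 0.07 in control and -0.21 in exposed rats. The part of these markers in the changes of the lipid genes was not tested.

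Of 41 other genes of these pathways tested, 7 rose and 5 fell at D0 (6.93% and 6.58% of all genes), and 6 rose and 1 fell at D3 (4.89% and 5.53%). Msmo1 and Sc5d, enzymes of sterol synthesis among 9 sterol genes tested on this list, rose at D0, by 0.47 and 0.46. Neither was a DEG, and they were chosen for mention after their values were seen. Acsl4, which activates long-chain polyunsaturated fatty acids, rose by 0.72 at D0 (adjusted p = 3.1e-09) and by 0.75 at D3. Ch25h, which makes an oxysterol, rose by 0.79 at D0 (adjusted p = 0.011), and Lcat, which esterifies cholesterol in plasma, fell by 0.82 (adjusted p = 6.38e-05). In the control rats from D0 to D3 Lcat also fell, by 0.80, and Ch25h rose, by 0.80.

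At D3 the mitochondrial citrate carrier Slc25a1, which supplies Acly, rose by 0.61 (adjusted p = 0.000288), and the elongase Elovl4 by 1.41 ± 0.43 (adjusted p = 0.0246). Dgat2, which makes triglyceride, was the only one of the 41 genes to rise at D28, D90 and D180, by 0.54, 0.47 and 0.42 (adjusted p = 0.000148, 0.00295 and 0.0115). Over the mean of the 5 days 13 of these genes rose and 3 fell, against 9.96% and 9.77% of all genes.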

How the data were processed

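Each deposited scanner file lists spot intensity values in linear fluorescence units, per the file headers, from Agilent Feature Extraction 11.0.1.1, the release that the submitters' processing notes also give. The study's methods name a later release. The authors also deposited a series matrix. Set against the scanner files, its numbers are linear median intensity values, quantile normalized with no background taken off. It served as an alternative.

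The processed signal, an intensity from which that software had taken the background, was log2 transformed here, averaged over the spots of a probe without control spots and spots marked as outliers, and quantile normalized. A probe was kept when, on 5 or more arrays, it exceeded the 95th percentile of negative control spots (29549 probes), and the probe with the highest mean signal stood for its gene. limma 3.58.1 in R 4.3.3 was fitted with a mean for each of 10 groups, two-sided. Groups and replicate numbers came from the sample labels. With each rat on 1 array, p-values weigh a difference between groups against the spread between arrays within groups. That spread holds rat, slide and array together, as the main fit has no slide term. The number of arrays limits the precision. Replicate numbers were not used as pairs, because same-numbered rats did not, as a rule, deviate together. The fit was tested on simulated data.

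The genes, their roles, the marker lists and the tests were chosen with earlier results of these data known. Genes that passed are named, DEGs and the leading gene of each role are given per rat, and others by range. Alternatives were 75th percentile scaling, normexp (offset 50), no filter or one of 25 arrays, slide or replicate number as a block, the mean of a gene's probes, the series matrix, only the arrays compared, the fat or clock output score as a covariate, and leaving out each array. Promoter windows came from a RefSeq table of GRCr8. The genome build behind the array annotation is not given in the sources used here, and gene positions from it were not used.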

Additional observations from a re-analysis of the deposited data

Results flagged for a closer look

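In the exposed rats of D0, the Dhcr7 level of replicate 4 (log2 10.01) stood apart from the other 4 rats, by a gap of 0.726 of the group's range. It was 1 of 28 groups of 5 rats tested in this way, where chance marks about 1 group in 20.

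The exposure effect (log2 change) differed between a later day and D0 in 20 tests, all with a smaller effect at the later day. At D3 this was Hmgcs1 (-0.65). At D28 these were Fdps (-0.50), Cyp51 (-0.48) and Acss2 (-0.43). At D90 they were Hmgcs1 (-0.61), Fdps (-0.46), Idi1 (-0.63), Mvd (-0.52), Cyp51 (-0.46) and Acat2 (-0.35). At D180 they were Hmgcs1 (-0.60), Sqle (-0.56), Fdps (-0.69), Idi1 (-0.68), Mvd (-0.65), Cyp51 (-0.74), Dhcr7 (-0.51), Acat2 (-0.47), Acss2 (-0.59) and Fads1 (-0.65). All these tests share the D0 rats.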

How the results depend on the processing

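Counts of the 37 genes that passed were 14, 12, 3, 1 and 0 at D0, D3, D28, D90 and D180, 14 in the mean of the days, 1, 3, 6 and 10 for the effect at D3, D28, D90 and D180 against D0, and 12, 2 and 0 in the control comparisons D3 to D0, D28 to D3 and D180 to D90. With slide as a block, D3, D28, D90 and D180 gave 22, 7, 3 and 1, the differences from D0 gave 5, 13, 13 and 19, and control D28 to D3 gave 10. Over all 25208 genes that block gave 4933, 3129, 1096 and 1037 at those days. The differences from D0 gave 967, 2128, 3345 and 3410 over all genes, and control D28 to D3 gave 1313. With the clock output score as a covariate, D0, D3, D28 and D90 gave 6, 4, 0 and 0, the differences at D28, D90 and D180 gave 0, and control D28 to D3 gave 0. Over all 25208 genes that covariate gave 668, 345, 25 and 1 at D0, D3, D28 and D90. It gave 0, 8 and 4 for the differences at D28, D90 and D180, and 1 for control D28 to D3, over all genes. With only the arrays compared, D3, D28, D90 and D180 gave 7, 0, 0 and 1, and the control comparisons D3 to D0 and D28 to D3 gave 1 and 0. Normexp gave 0 and 5 for the differences at D3 and D28. The causes were not tested.

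Leaving out 1 array gave 13 to 14 at D0, 11 to 16 at D3, 1 to 4 at D28, 0 to 1 at D90, 0 at D180 and 14 to 15 in the mean. The differences from D0 ranged from 0 to 1, 3 to 6, 4 to 8 and 7 to 11, and the control comparisons from 7 to 12, 1 to 3 and 0. The count at D28 moved by over 1.5 times without control replicate 1, 3 or 4 or exposed replicate 2, 4 or 5. The control count D28 to D3 did so without control replicate 1 of D3 or 3 of D28, and the difference at D28 without exposed replicate 2 of D0 or control replicate 3 or 5 of D28.

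Replicate numbers shared by the groups did not pair the rats, as 25 same-numbered pairs correlated at -0.34 to 0.45 (median -0.03, 8 over 0.1). The 7 pairs that shared a slide were at 0.04 to 0.45, and the part of the slide in this was not tested. With replicate number as a block 14, 12, 2, 1 and 0 genes passed at the 5 days, and 1 of 78 named values lost its call. Of these 78 values none turned its direction under any alternative, and 46 lost their call with the clock covariate and 25 of 44 with only the arrays compared. Each other alternative that used all arrays kept the call of 72 or more of the 78. Signal over background limits Thrsp most, as the gene well above background on the fewest arrays (44 of 50).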
